A study of Rattus norvegicus with 30 samples.

Results

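Ccn2, Ccn1 and 8 genes of the Hippo-YAP and TGF-β systems (Ankrd1, Amotl2, Axl, Lats2, Tead1, Yap1, Tgfb1 and Tgfb2) were followed in cultured rat hepatocytes given WY-14643. The 10 genes were chosen with the large fall of Ccn2 in these wells already known, so signals in these wells took part in the choice. They were selected on the difference of treated wells from vehicle. The 24 h differences of all 10 genes from vehicle and between doses are therefore given as a description without a test. So are their changes with time, treated or vehicle, and the values of Ccn2 against vehicle at any time. The 48 h adjusted p-values of the other chosen genes make no allowance for that choice. Of the 10 genes, 9 had a probe set with that symbol alone, 12 probe sets in all, and Yap1 had none. The signal filter, a signal above 281.361 on at least 5 of the 30 arrays, was passed by 8 of the genes, among 11545 genes in the whole data set. Tgfb1 stayed below it on all 30 arrays, with signals from 12.1 to 120.2 and a median of 19.9.

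WY-14643, or pirinixic acid, is a synthetic agonist of PPARα, the nuclear receptor that controls fatty acid oxidation in liver. The cells were hepatocytes from male Sprague Dawley rats, bought frozen, plated on collagen under a Matrigel overlay and dosed on day 3 of culture. The 6 groups were vehicle, 8 µM and 200 µM at 24 h and the same at 48 h, each of n = 5 wells and 1 array a well. The vehicle is labelled 1% DMSO, and the labels leave uncertain how much DMSO the treated wells received. The labels describe the wells as separate cultures without saying whether their cells came from different animals, so each error and p here measures the spread between wells.

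YAP is a transcriptional coactivator that binds DNA through the TEAD factors. The kinases of the Hippo pathway, LATS1 and LATS2, phosphorylate it and keep it in the cytoplasm, while stiff matrix, cell spreading and actin tension favour its entry into the nucleus. CCN1 and CCN2 are secreted matricellular proteins that bind integrins and growth factors in the matrix, and their genes are classic targets of YAP and TEAD. CCN2 transcription also responds to TGF-β, and in liver the protein is best known from fibrosis.

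Several of these genes carry the letters that TEAD factors read close to their start, and the 3 windows of the genes with the lowest treated levels relative to vehicle are shown for that reason. RefSeq promoter windows (build GRCr8, 250 bases before to 50 after the start) were held for 7 of the 10 genes, all but Ankrd1, Lats2 and Tead1. The motif searched was CATTCC on either strand (GGAATG where it lies on the opposite strand), printed here in capitals, 5′ to 3′ along the gene's strand. The Ccn2 window lies at chr1:22624565-22624864, the Ccn1 window at chr2:237225640-237225939, both on the minus strand, and the Amotl2 window at chr8:112182376-112182675 on the plus strand.
Ccn2: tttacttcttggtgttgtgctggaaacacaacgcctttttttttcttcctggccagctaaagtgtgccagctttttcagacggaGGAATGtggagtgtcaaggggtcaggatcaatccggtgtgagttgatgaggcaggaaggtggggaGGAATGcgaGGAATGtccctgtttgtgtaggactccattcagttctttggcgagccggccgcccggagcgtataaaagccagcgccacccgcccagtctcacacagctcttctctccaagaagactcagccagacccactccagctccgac
Ccn1: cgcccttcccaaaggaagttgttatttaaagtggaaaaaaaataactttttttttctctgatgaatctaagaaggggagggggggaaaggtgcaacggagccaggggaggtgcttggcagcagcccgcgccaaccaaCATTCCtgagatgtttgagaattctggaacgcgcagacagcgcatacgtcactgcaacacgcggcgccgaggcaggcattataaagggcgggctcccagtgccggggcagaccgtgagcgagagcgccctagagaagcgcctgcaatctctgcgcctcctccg
Amotl2: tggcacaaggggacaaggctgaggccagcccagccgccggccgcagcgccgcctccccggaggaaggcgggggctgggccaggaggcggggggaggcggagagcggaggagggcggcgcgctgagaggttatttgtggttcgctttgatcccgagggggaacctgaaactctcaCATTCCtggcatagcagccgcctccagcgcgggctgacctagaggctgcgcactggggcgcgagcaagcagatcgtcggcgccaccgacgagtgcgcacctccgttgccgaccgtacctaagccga
The Ccn2 window held 3 matches, with first bases at -166, -101 and -92 from the start, all on the opposite strand. Ccn1 held 1 match at -113, Amotl2 held 1 at -76, and Yap1 held 1 at -116. No match stood in the windows of Axl, Tgfb1 and Tgfb2. Of all 33469 windows of 300 bases, 14.2% held at least 1 match and 0.0956% (32 windows) held 3 or more. The AP-1 letters TGANTCA stood in none of the 7 windows and in 7.33% of all. A match is a run of letters and does not show that a factor binds there.

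**Figure D1:**
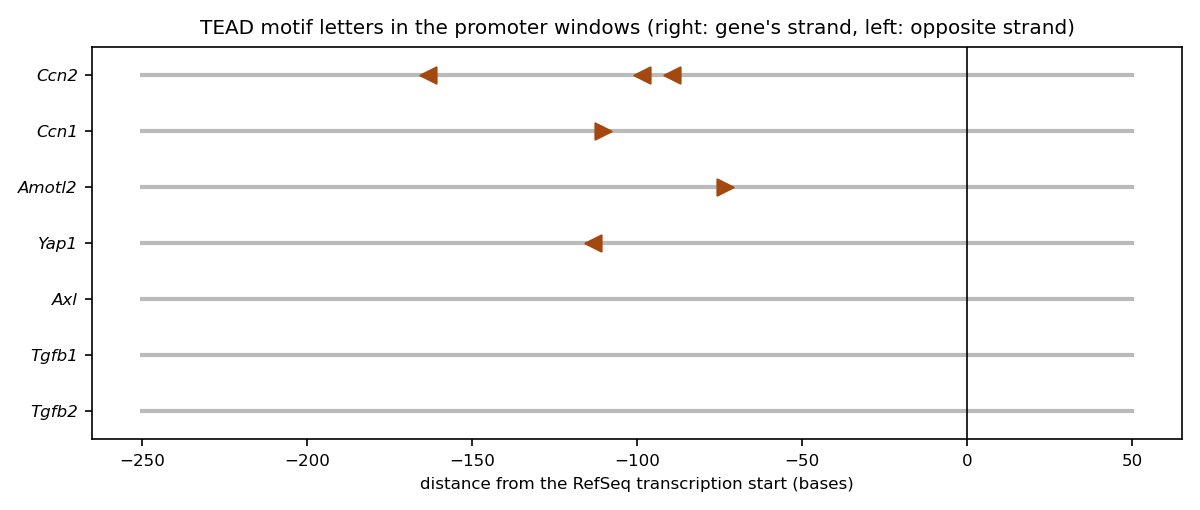
Position of the TEAD motif letters in the RefSeq promoter windows of 7 genes, in bases from the annotated start; right-pointing marks lie on the gene's strand and left-pointing marks on the opposite strand. Ccn2 has 3 marks between -166 and -87, Ccn1, Amotl2 and Yap1 have 1 each, and Axl, Tgfb1 and Tgfb2 have none.

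The cultures carried hepatocyte transcripts at high signal, and 11 of 11 hepatocyte markers with a probe set were above the filter. All 6 measured textbook targets of PPARα rose at each dose and time. Of all genes 11.1% and 11.6% rose at 8 µM and 200 µM at 24 h, and 16.7% and 16.8% at 48 h. A single array stood apart. The median signal of 48 h vehicle replicate 4 was 764, against 384 to 439 on the other 29 arrays, and its correlation with its own group was 0.896, against 0.973 to 0.980. It enters the spread of each test, so some of the values that it affects are repeated with that array removed, as was decided once its deviation had been noticed. Signal is a relative abundance in a bulk RNA, and fewer cells of a type cannot be told apart from less RNA per cell.

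Ccn2 was far above the filter in vehicle wells and was 7.67 to 18.4 times lower in the mean of each treated group. In 24 h vehicle wells its signals were 13342, 11089.5, 12113, 11216 and 11916 (mean 11935 ± 901, SD, n = 5). At 8 µM and 24 h they were 929, 1092, 946, 1115 and 921, and at 200 µM they were 1507, 1699, 1611, 1583 and 1384. The treated wells lay far below all vehicle wells, and the 200 µM wells lay above all 8 µM wells. The means were 11.9 times lower than the vehicle mean at 8 µM and 7.67 times lower at 200 µM, log2 differences of -3.56 ± 0.10 and -2.93 ± 0.10 (SE).

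At 48 h the gap was wider. Vehicle wells had Ccn2 signals of 18484, 18810.5, 18711, 14532.5 and 17637 (mean 17635 ± 1795). The 8 µM wells had 833, 1007, 887, 1148.5 and 923, and the 200 µM wells 896, 964, 1183, 1001 and 738. The lowest of the 48 h vehicle signals belongs to replicate 4, and it too lay far above each treated well. Means were 5.44% and 5.42% of vehicle, log2 differences of -4.18 ± 0.10 and -4.19 ± 0.10, and without replicate 4 they were -4.25 ± 0.10 and -4.26 ± 0.10. From the highest level to the lowest the order of the groups was 48 h vehicle, 24 h vehicle, 200 µM at 24 h, 8 µM at 24 h, 8 µM at 48 h and 200 µM at 48 h. The last 3 overlapped one another, and each of the earlier groups lay wholly above the next. The time difference within vehicle wells was 0.56 ± 0.10 on the log2 scale.

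The 2 doses of the compound were also set against each other. At 48 h Ccn2 at 200 µM and at 8 µM differed by -0.01 ± 0.10 (95% interval -0.21 to 0.19, limma adjusted p = 0.98), so a difference of more than about 0.21 on the log2 scale in either direction lies outside the interval. At 24 h the log2 difference was 0.63 (interval 0.43 to 0.83), a description here because the gene was chosen for its values there.

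**Figure D2:**
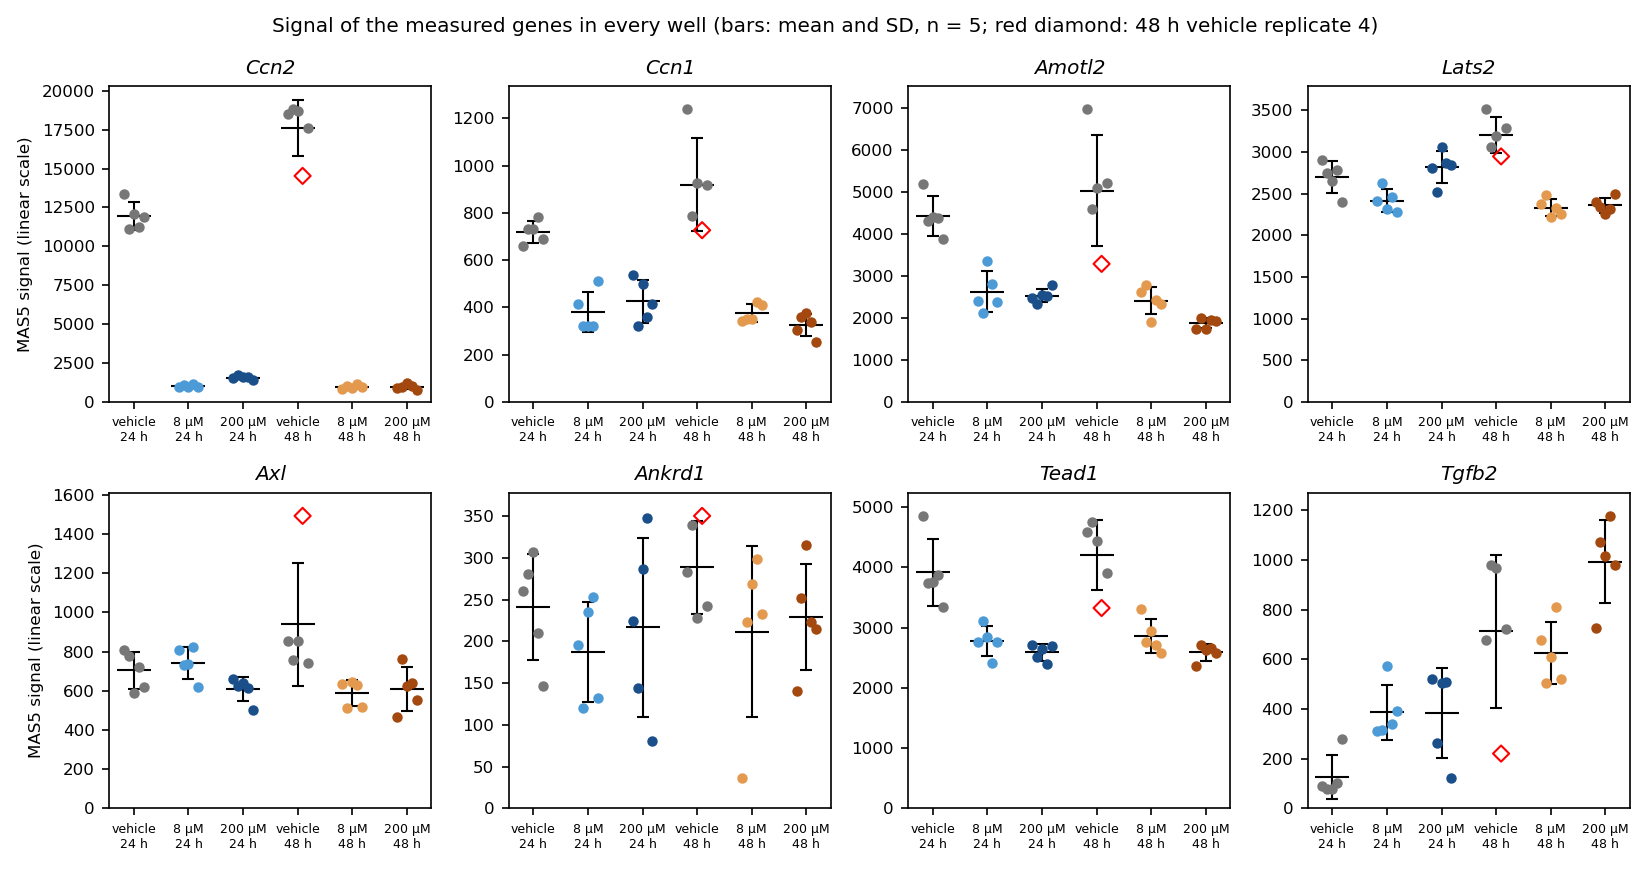
Signal of each of the 8 measured genes in every well (linear axis from 0), by group, with the mean and SD over n = 5 wells as bars; the red diamond is 48 h vehicle replicate 4. Ccn2 lies between 11089.5 and 18810.5 in vehicle wells and between 738 and 1699 in treated wells, and Ccn1, Amotl2 and Tead1 show the same separation on a smaller scale.

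Ccn1, the close relative of Ccn2 and an early-response gene of growth factors and stretch, was also lower in treated wells, by less than Ccn2. In 24 h vehicle wells the signals were 661, 730.4, 730.2, 783 and 690.1. They were 416, 320.2, 322, 323 and 511.5 at 8 µM and 535, 319.8, 501, 359 and 414 at 200 µM. No treated well reached the lowest vehicle well, and the 2 doses overlapped. The means were 52.7% and 59.2% of vehicle, log2 differences of -0.92 ± 0.17 and -0.76 ± 0.17.

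In the 48 h wells Ccn1 signals were 1237.5, 787, 928, 726 and 918 in vehicle. They were 342, 352, 350.2, 424 and 409.7 at 8 µM and 305, 358, 374, 337.5 and 254.5 at 200 µM. The groups did not overlap with vehicle. Ccn1 fell, with log2 differences of -1.24 ± 0.17 at 8 µM (adjusted p = 2.9e-07) and -1.44 ± 0.17 at 200 µM (adjusted p = 1.8e-08), to 40.9% and 35.4% of vehicle. The difference between doses was -0.20 at 48 h (interval -0.54 to 0.14, adjusted p = 0.68). Vehicle wells of 48 h and 24 h differed by 0.33, and the change of the treated difference with time was -0.32 at 8 µM and -0.68 at 200 µM.

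Of the other genes of the CCN family, Ccn4 was below the filter. Ccn3, Ccn5 and Ccn6 were measured, and at 8 µM and 48 h Ccn3 (-0.58 ± 0.20, adjusted p = 0.026) and Ccn5 (-0.62 ± 0.25, adjusted p = 0.046) fell. Neither passed without replicate 4 of the 48 h vehicle, where the values were -0.35 (adjusted p = 0.12) and -0.40 (adjusted p = 0.17). Ccn6 did not pass against vehicle at either dose or time.

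Of 11 proteins known to bind CCN proteins at the cell surface, 8 were measured. At 24 h 2 fell and 1 rose at each dose, where 13.8% and 13.1% of all genes fell and 11.1% and 11.6% rose. At 48 h 2 fell at 8 µM and 3 at 200 µM, and 1 rose at each dose. There 18.9% and 17.1% of all genes fell and 16.7% and 16.8% rose. Syndecan-4 (Sdc4), a heparan sulfate proteoglycan of focal adhesions, had a mean signal of 26615 ± 1296 with vehicle at 24 h, 12940.2 ± 1195 with 8 µM and 15267 ± 1379 with 200 µM. It fell, with log2 differences of -1.04 ± 0.09 and -0.80 ± 0.09 at 24 h and -1.30 ± 0.09 and -1.14 ± 0.09 at 48 h (highest adjusted p = 6.9e-09). Integrin α6 (Itga6), a laminin receptor subunit, fell too, at -0.63 and -0.70 at 24 h and -0.28 and -0.50 at 48 h. Lrp1, an endocytic receptor that takes up CCN2, rose by 0.83, 0.70, 0.90 and 0.80 on the log2 scale in the same order. The integrin subunit Itga2b fell at 200 µM and 48 h (-0.49 ± 0.12, adjusted p = 0.0018) and was at -0.29 (adjusted p = 0.066) at 8 µM. Under median centring of the arrays the 48 h falls of Itga6 and Itga2b did not pass. Without 48 h vehicle replicate 4 those of Itga6 were -0.40 and -0.62 (adjusted p = 8.3e-04 and 2.0e-06). Itga2b at 200 µM was then at -0.48 (adjusted p = 0.0027).

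Over the 7 measured genes other than Ccn2, 3 were called lower (Ccn1, Amotl2, Tead1) and 1 higher (Tgfb2) at each dose at 24 h. Of all 11545 genes, 13.8% were called lower and 11.1% higher at 8 µM, and 13.1% and 11.6% at 200 µM. Nothing is read from these 24 h counts, since those wells entered the choice of the genes. At 48 h 5 of the 7 fell (Ccn1, Amotl2, Axl, Lats2 and Tead1) and none rose at 8 µM, where 18.9% of all genes fell and 16.7% rose, and the same count held at 200 µM, where 17.1% fell and 16.8% rose. The 2 that did not pass were Ankrd1 and Tgfb2. The median log2 difference of the 7 was -0.62 at 8 µM and -0.58 at 200 µM, and the median over all genes was -0.06 and -0.05. These 48 h counts and medians are a description too, since differences from vehicle in these data were known at the choice.

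**Figure D3:**
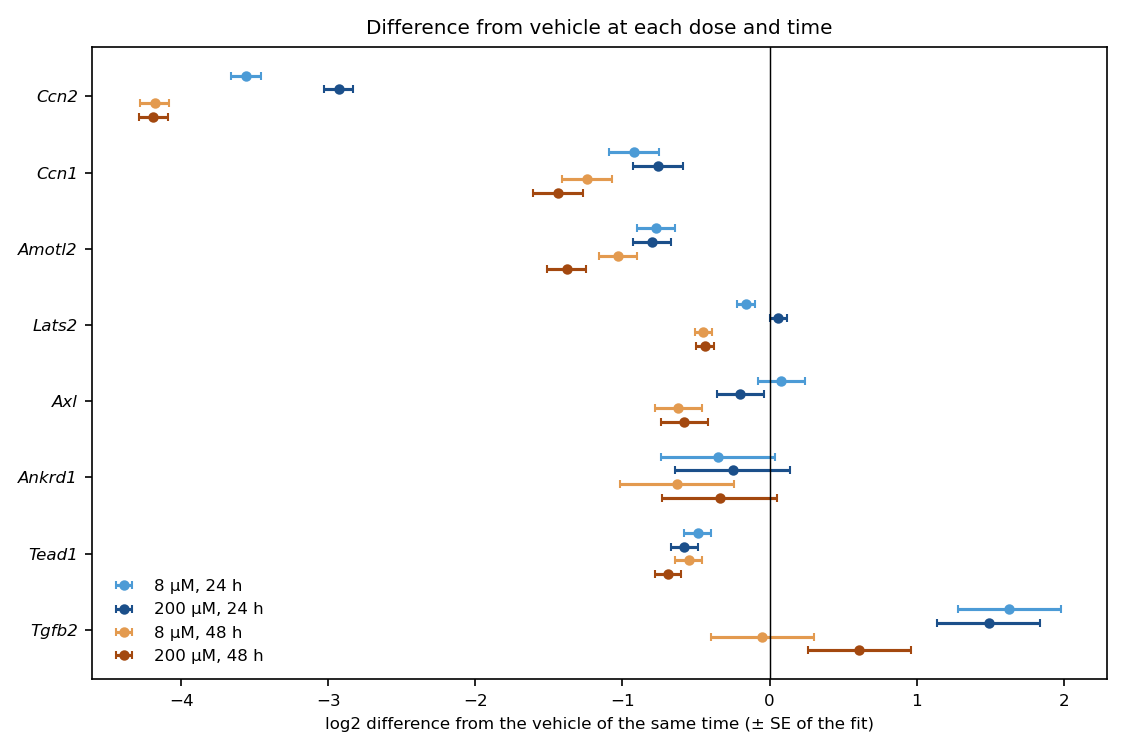
Log2 difference of each measured gene from the vehicle of the same time (points, with the SE of the fit as bars), for 8 µM and 200 µM at 24 h (blue) and 48 h (orange and brown). Ccn2 stands between -4.19 and -2.93, Ccn1 and Amotl2 between -1.44 and -0.76, Tead1 between -0.69 and -0.49, and Tgfb2 is above 1.4 at 24 h by the probe set shown.

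Amotl2, an angiomotin-like scaffold that binds YAP at junctions and is itself a YAP target, had the next clearest pattern. Its 24 h signals were 5182, 4295, 4399.5, 4366 and 3887 in vehicle, 2410.4, 2106, 3361, 2814 and 2383 at 8 µM, and 2478, 2326.5, 2546, 2521 and 2776 at 200 µM. All treated wells lay below all vehicle wells, with means of 59.1% and 57.2% of vehicle (log2 -0.77 ± 0.13 and -0.80 ± 0.13). At 48 h they were 6961, 4599, 5091, 3284 and 5200.0 in vehicle, 2618.5, 2770.3, 1906, 2430.5 and 2321.5 at 8 µM, and 1736, 1987, 1745, 1955 and 1922.5 at 200 µM.

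Here too the 48 h groups did not overlap, although vehicle replicate 4 lay well below the other vehicle wells. Amotl2 fell, with log2 differences of -1.03 ± 0.13 at 8 µM (adjusted p = 8.0e-08) and -1.38 ± 0.13 at 200 µM (adjusted p = 1.6e-10). The difference of 200 µM from 8 µM was -0.35 ± 0.13 (interval -0.62 to -0.09, adjusted p = 0.13). It passed without 48 h vehicle replicate 4 (-0.35, adjusted p = 0.033) and not under median centring (adjusted p = 0.82). With that centring and without that array it passed (-0.38, adjusted p = 0.028). The change of the 200 µM difference from 24 h to 48 h was -0.58 ± 0.18, and without that array -0.72.

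Lats2, the kinase that inhibits YAP and is induced by it, was near its vehicle level at 24 h and fell at 48 h. At 24 h the signals were 2906, 2743, 2650.2, 2779 and 2397 in vehicle, 2413, 2622, 2311, 2458 and 2276 at 8 µM, and 2806, 2515, 3059, 2864 and 2841 at 200 µM. The 3 groups overlapped, with log2 differences from vehicle of -0.16 ± 0.06 and 0.06 ± 0.06. At 48 h they were 3510.1, 3056, 3195, 2946 and 3283 in vehicle, 2369, 2480.1, 2222, 2325 and 2257 at 8 µM, and 2393, 2338, 2249, 2314 and 2497 at 200 µM.

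Every treated 48 h well lay below every vehicle well, and the 2 doses overlapped fully. Lats2 fell, with log2 differences of -0.45 ± 0.06 at 8 µM (adjusted p = 7.1e-07) and -0.44 ± 0.06 at 200 µM (adjusted p = 1.6e-06). Between the times its 200 µM difference from vehicle moved by -0.50 ± 0.09 and its 8 µM difference by -0.30 ± 0.09, a description because the 24 h differences took part in the choice. Of the 7 genes 1 was called for this change at 200 µM (Lats2) and 0 at 8 µM, where 2.41% and 2.90% of all genes were, and nothing is read from these counts. Under median centring the falls of Lats2 did not pass (-0.26, adjusted p = 0.16 and -0.27, adjusted p = 0.15), and its change with time at 200 µM was -0.35. With the same centring and without 48 h vehicle replicate 4, both falls of Lats2 passed (-0.47, adjusted p = 1.5e-06 and -0.47, adjusted p = 1.3e-06).

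Axl, a receptor tyrosine kinase that YAP induces and that clears dying cells and signals survival, was near vehicle at 24 h and fell at 48 h. The 24 h signals were 807, 778, 591, 724 and 621 in vehicle, 811, 729, 735.5, 821 and 619 at 8 µM, and 658.5, 626, 639, 613.5 and 504 at 200 µM. These overlapped, with log2 differences of 0.08 ± 0.16 and -0.20 ± 0.16. At 48 h they were 853, 759, 854, 1493 and 740.4 in vehicle, 637, 513, 647, 631 and 516 at 8 µM, and 466, 764, 625.5, 642 and 551 at 200 µM.

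The value of 1493 is that of vehicle replicate 4. All 8 µM wells lay below the vehicle wells, and 1 well at 200 µM lay among them. Axl fell, with log2 differences of -0.62 ± 0.16 at 8 µM (adjusted p = 0.0021) and -0.58 ± 0.16 at 200 µM (adjusted p = 0.0039). Without replicate 4 it fell, with log2 differences of -0.44 (adjusted p = 0.0079) and -0.40 (adjusted p = 0.016), and with only the groups of the contrast in the fit the 200 µM difference did not pass (-0.58, adjusted p = 0.056).

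The main ligand of Axl fell as well. Gas6, a vitamin K-dependent protein that bridges the receptor to phosphatidylserine, had mean signals of 6755 ± 774 with vehicle at 24 h, 3036 ± 153 with 8 µM and 2821 ± 247 with 200 µM. It fell, with log2 differences of -1.14 ± 0.12, -1.25 ± 0.12, -1.04 ± 0.12 and -1.09 ± 0.12 at 8 µM and 200 µM at 24 h and 8 µM and 200 µM at 48 h (highest adjusted p = 2.2e-08). Pros1, protein S, the other ligand, fell at 8 µM, with log2 differences of -0.30 and -0.33 at the 2 times, and neither fall passed under median centring. It did not pass against vehicle at 200 µM, with differences of 0.00 and 0.02. Here the doses themselves differed, 200 µM being higher by 0.30 ± 0.07 at 24 h (adjusted p = 0.0059) and by 0.35 ± 0.07 at 48 h (adjusted p = 9.0e-04). These dose differences were not repeated under median centring, which cut such calls over all genes from 349 to 39 and from 553 to 96. The receptor Tyro3 rose by 0.74 and 0.50 at 24 h and by 0.41 at 200 µM and 48 h, while at 8 µM and 48 h it was at 0.37 (adjusted p = 0.052). There it passed without vehicle replicate 4 (0.42, adjusted p = 0.023) and also under quantile normalization and median centring. Mertk, the other receptor of the family, was below the filter.

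Ankrd1, an ankyrin-repeat protein of muscle and injured liver that is a standard YAP readout in other cells, lay near the filter. Its signals ran from 146 to 307 in 24 h vehicle wells, 120.2 to 253 at 8 µM and 81.2 to 348 at 200 µM. At 48 h they ran from 228 to 350.3, from 36.9 to 298.5 and from 141 to 316. All 6 groups overlapped with their neighbours in level, and only 8 of 30 arrays exceeded the filter value. The 48 h differences were -0.63 ± 0.39 (interval -1.42 to 0.17, adjusted p = 0.22) and -0.34 ± 0.39 (-1.13 to 0.46, adjusted p = 0.56). These intervals are wide enough to hold a fall as large as that of Amotl2 at 8 µM. Its second probe set was below the filter on every array.

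Tead1, a DNA-binding partner of YAP, was lower in treated wells by both of its probe sets. The signals at 24 h were 4853, 3747, 3763, 3866 and 3344.5 in vehicle, 2756, 3107, 2839.7, 2412 and 2759 at 8 µM, and 2705, 2510.2, 2639.7, 2391 and 2694 at 200 µM. No treated well reached the vehicle range, and the log2 differences were -0.49 ± 0.09 and -0.58 ± 0.09 (-0.59 and -0.70 by the second probe set). At 48 h they were 4587, 4754, 4437, 3324 and 3914 in vehicle, 3311, 2756, 2940.1, 2716 and 2583 at 8 µM, and 2354, 2718, 2632, 2662 and 2576 at 200 µM.

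The lowest 48 h vehicle well, replicate 4, was just above the highest well at 8 µM. Tead1 fell, with log2 differences of -0.55 ± 0.09 at 8 µM (adjusted p = 1.1e-05) and -0.69 ± 0.09 at 200 µM (adjusted p = 2.4e-07). The second probe set gave -0.55 ± 0.11 (adjusted p = 2.6e-04) and -0.77 ± 0.11 (adjusted p = 2.0e-06). Under median centring the 8 µM fall of Tead1 did not pass (-0.35, adjusted p = 0.12), and without 48 h vehicle replicate 4 it did (-0.61, adjusted p = 1.5e-06).

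Of the other Hippo components, 22 of 26 were measured. At 24 h 2 fell at 8 µM (Lats1 and Tead2) and 1 at 200 µM (Stk4), and none rose, where 13.8% and 13.1% of all genes fell. Without 48 h vehicle replicate 4 the count at 8 µM was 5, with Stk4, Wwc1 and Ajuba added, and Tead2 did not pass there under quantile normalization or median centring. Calls of all genes there, in either direction, went from 2870 to 3549 without that array. At 48 h 5 fell at 8 µM and 7 at 200 µM, again with none that rose, beside background shares of 18.9% and 17.1% of all genes. Without vehicle replicate 4 the 48 h counts were 3 and 6, and under median centring 2 at each dose, with 1 rise at 8 µM. That centring raised the median of all genes at 48 h by 0.19 and 0.17. The kinase Stk4 (MST1), which acts upstream of LATS, fell, with log2 differences of -0.53 ± 0.08 and -0.51 ± 0.08 at 48 h (adjusted p = 2.4e-06 and 6.3e-06). Its 24 h values were -0.21 (adjusted p = 0.052, and 0.011 without that array) and -0.33 (adjusted p = 0.0022). Ajuba, a LIM protein that restrains LATS, fell at 48 h, at -0.44 and -0.58, and passed at neither dose under median centring. Without 48 h vehicle replicate 4 the differences of Ajuba were -0.59 and -0.73 (adjusted p = 1.4e-07 and 2.1e-09). Tead2 was -0.45 and -0.70 at 48 h, past the threshold at both doses, but at 8 µM only with replicate 4 (-0.39, adjusted p = 0.085 without it).

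The YAP target signature to which 7 of the genes belong holds 15 others, of which 13 were measured, and most of these did not pass against vehicle. At 48 h 3 fell (Crim1, Nt5e and Ptpn14) and 2 rose (Igfbp3 and Gadd45a) at 8 µM. At 200 µM 3 fell (F3, Nt5e and Ptpn14) and 1 rose (Gadd45a). Of all genes 18.9% fell and 16.7% rose at 8 µM, and 17.1% and 16.8% at 200 µM. Without 48 h vehicle replicate 4 only Nt5e fell at either dose, 2 rose at 8 µM (Gadd45a and Nuak2) and 1 rose at 200 µM. Their median log2 difference was -0.29 and -0.22 at 8 µM and 200 µM with that array, and -0.03 at each dose without it.

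Nt5e, the ectonucleotidase CD73, passed in all 4 contrasts against vehicle. Its mean signal was 3088 ± 200.0 with vehicle at 24 h, 1437 ± 77.8 with 8 µM and 1392 ± 97.4 with 200 µM. It fell, with log2 differences of -1.09 ± 0.07 and -1.14 ± 0.07 at 24 h (adjusted p = 3.2e-15 and 1.5e-15) and -0.62 ± 0.07 and -0.70 ± 0.07 at 48 h (adjusted p = 2.4e-09 and 2.0e-10). The difference was smaller at 48 h than at 24 h, by 0.48 ± 0.09 at 8 µM (adjusted p = 0.0019) and 0.45 ± 0.09 at 200 µM (adjusted p = 0.0049), whereas that of Ccn2 was larger at 48 h. This change was not repeated under median centring. Over all genes that centring cut such calls from 335 to 42 at 8 µM and from 278 to 28 at 200 µM. Gadd45a, a stress-induced growth arrest gene, rose by 0.25 at 8 µM and 24 h and by 0.36 and 0.42 at 48 h. Dock5, an exchange factor for Rac, fell by 0.57 ± 0.14 at 200 µM and 24 h (adjusted p = 0.0021).

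**Figure D4:**
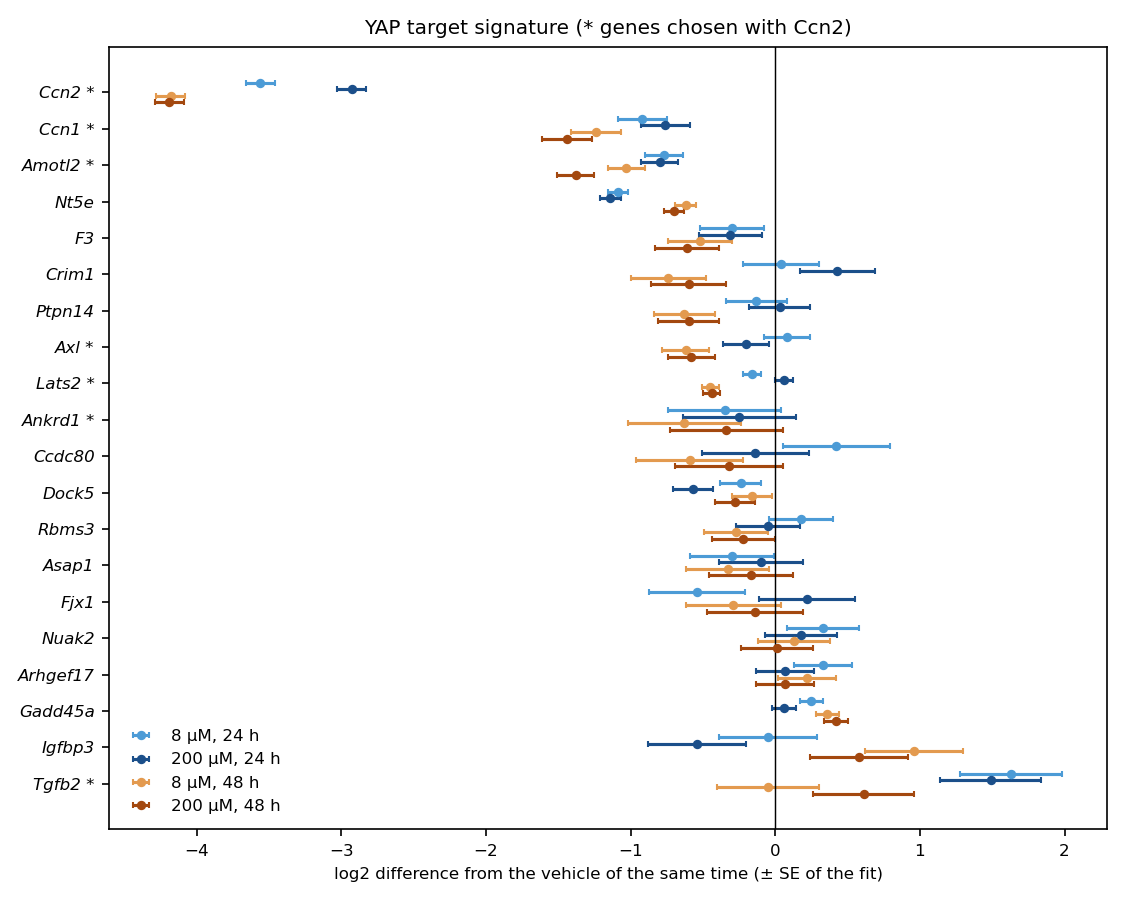
Log2 difference from the vehicle of the same time for the 20 measured genes of the YAP target signature (points, with the SE of the fit as bars); stars mark the genes chosen with Ccn2. Ccn2, Ccn1, Amotl2 and Nt5e lie left of 0 at each dose and time, as do Ankrd1, F3, Dock5 and Asap1. Gadd45a, Arhgef17 and Nuak2 lie right of it, and the others change side.

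Tgfb2, a ligand of the TGF-β family and also a listed YAP target, was measured by 2 probe sets that disagreed. By the brighter one the 24 h signals were 91.4, 77.0, 77.1, 102 and 281 in vehicle, 312, 316, 575, 339 and 391.5 at 8 µM, and 520.1, 265, 506, 508 and 123 at 200 µM. The 8 µM wells lay above the vehicle wells and the 200 µM wells overlapped them, with log2 differences of 1.63 ± 0.35 and 1.49 ± 0.35. By the second probe set the same differences were -0.63 ± 0.45 and -0.91 ± 0.45, so no direction can be given for the gene at 24 h.

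At 48 h the brighter probe set gave 676, 978.5, 969, 220.4 and 724 in vehicle, 678, 504, 611, 809 and 522 at 8 µM, and 724.5, 1073, 1014, 1177.5 and 978 at 200 µM. The groups overlapped, and the low vehicle value is that of replicate 4. The differences were -0.05 ± 0.35 (adjusted p = 0.94) and 0.61 ± 0.35 (adjusted p = 0.19), and by the second probe set -0.16 (adjusted p = 0.82) and -0.93 (adjusted p = 0.12). Between 24 h and 48 h of vehicle the brighter probe set differed by 2.37 ± 0.35 and the second by -0.28, both a description.

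Between 200 µM and 8 µM none of the 7 genes passed at 24 h or at 48 h, where 3.02% and 4.79% of all genes did. Nothing is read from the 24 h count, since those wells entered the choice. Lats2 at 24 h was at 0.22 ± 0.06 (interval 0.09 to 0.35), and was called neither in the main fit nor under median centring. It was called when 48 h vehicle replicate 4, or replicate 2 of either treated 24 h group, was left out. From 24 h to 48 h of vehicle Lats2 differed by 0.25 ± 0.06 (0.20 without replicate 5 of the 24 h vehicle and 0.10 under median centring). Of the 7, 2 were called higher over this time (Lats2 and Tgfb2) and none lower, where 4.46% of all genes rose and 5.40% fell. The call of Lats2 was lost in those settings and with only these groups in the fit. Nothing is read from these calls. The change of the 8 µM difference of Tgfb2 with time was -1.68 ± 0.50 by the brighter probe set and 0.47 by the second.

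Of 26 other genes of the TGF-β pathway 21 were measured. At 24 h 4 fell (Tgfbi, Skil, Bambi and Fn1) and 1 rose (Tgif1) at each dose, and at 48 h 4 fell and 2 rose at 8 µM and 5 fell and 2 rose at 200 µM. Of all genes 13.8% and 13.1% fell at 24 h and 18.9% and 17.1% at 48 h. Under median centring 1 and 2 of the list fell at 24 h and 2 at each dose at 48 h. The same centring cut the 24 h calls of all genes in either direction from 2870 to 1461 and from 2853 to 1353. It raised the median of all genes at 48 h by 0.19 and 0.17. Fibronectin (Fn1), a matrix glycoprotein and TGF-β target that hepatocytes secrete in large amounts, had a mean signal at 24 h of 43742 ± 3171 with vehicle, 18612 ± 606 with 8 µM and 22517 ± 1156 with 200 µM. The 48 h means were 41182 ± 5981, 10181 ± 425 and 14252 ± 513.

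Fn1 fell, with log2 differences of -1.23 ± 0.07 and -0.96 ± 0.07 at 24 h (adjusted p = 1.2e-15 and 1.0e-12). It fell at 48 h as well (adjusted p = 1.7e-21 and 4.2e-18). Without vehicle replicate 4 the 48 h differences were -2.10 ± 0.05 (adjusted p = 6.2e-26) and -1.61 ± 0.05 (adjusted p = 9.8e-23). It was higher at 200 µM than at 8 µM, by 0.27 ± 0.07 at 24 h (adjusted p = 0.025) and 0.48 ± 0.07 at 48 h (adjusted p = 2.1e-05). Neither was repeated under median centring, which cut the dose calls of all genes from 349 to 39 and from 553 to 96. Skil, a repressor of SMADs that TGF-β induces, fell, with log2 differences of -0.30 and -0.48 at 24 h and -0.30 and -0.75 at 48 h. Bambi, a decoy receptor, also fell, at -0.35, -0.26, -0.70 and -0.47 in the same order. Under median centring the falls of Skil at 8 µM were lost at both times, and those of Bambi at 24 h and at 200 µM and 48 h. Quantile normalization also ended that of Bambi at 200 µM and 24 h. Ltbp1, which holds latent TGF-β in the matrix, rose by 0.94 ± 0.17 and 0.52 ± 0.17 at 48 h (adjusted p = 2.6e-05 and 0.014).

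Genes of the actin cytoskeleton and of its transcription factor SRF, which answers to the same mechanical cues as YAP, fell in many cases. Of 22 listed 18 were measured. At 24 h 9 fell and 1 rose at 8 µM, and 11 fell at 200 µM, where 13.8% and 13.1% of all genes fell. At 48 h 11 fell and 1 rose at 8 µM, and 12 fell and 1 rose at 200 µM, a median log2 difference of -0.40 and -0.57, where 18.9% and 17.1% of all genes fell. Under median centring the 24 h falls numbered 4 and 8 and the 48 h falls 2 and 6, with medians of -0.21 and -0.40. That centring also cut the calls of all genes in either direction at 24 h, from 2870 to 1461 and from 2853 to 1353. At 48 h it raised the median of all genes by 0.19 and 0.17. Without vehicle replicate 4 the falls numbered 12 in each of the 4 contrasts. Calls of all genes then numbered 3549 and 3571 at 24 h, and at 48 h 4274 and 4160, against 4112 and 3905 with it.

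Smooth muscle actin (Acta2) fell, with log2 differences of -0.53 ± 0.14 and -1.24 ± 0.14 at 24 h, and -0.48 ± 0.14 and -0.95 ± 0.14 at 48 h. It was lower at 200 µM than at 8 µM at both times (-0.71, adjusted p = 0.0013 and -0.47, adjusted p = 0.037). These dose differences were not repeated under median centring. Tropomyosin 4 (Tpm4) and tropomyosin 1 (Tpm1) fell as well. Tpm4 stood at -0.69, -0.85, -0.45 and -0.60 and Tpm1 at -0.31, -0.58, -0.26 and -0.45 in the same order. Vinculin (Vcl), an anchor of actin at adhesions, rose at 8 µM at both times (0.27 and 0.61) and at 200 µM at 48 h (0.35). Median centring ended the calls of Tpm1 other than at 200 µM and 24 h, those of Tpm4 at 48 h, that of Acta2 at 8 µM and 48 h and that of Vcl at 8 µM and 24 h. In vehicle wells 6 of the 18 rose between 24 h and 48 h and none fell, where 4.46% of all genes rose and 5.40% fell.

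The arrays also carried markers of cells other than hepatocytes, some of which make Ccn2 in liver, at low signal. Of 14 stellate cell and fibroblast markers 8 were above the filter (Des, Gfap, Reln, Col1a1, Col1a2, Col3a1, Dcn and Acta2). The other 6, Lrat, Pdgfrb, Pdgfra, Lum, Hand2 and Ngfr, were below it. The summed signal of the 8 ran from 4485 to 5016 in 24 h vehicle wells, 3866 to 4673 at 8 µM and 3847 to 4304 at 200 µM. At 48 h it ran from 4798 to 8909, 4373 to 4987 and 3761 to 4587. Acta2 also stands in the actin list. At 8 µM and 48 h 2 of the 8 fell, Acta2 and Des (-0.65, adjusted p = 0.0022), where 18.9% of all genes fell, and both passed without 48 h vehicle replicate 4 as well (Des -0.47, adjusted p = 0.0088). In the 200 µM wells of 48 h 4 of the 8 fell (Col1a1, Col3a1, Dcn and Acta2), where 17.1% of all genes fell, but without vehicle replicate 4 only Acta2 fell, and Gfap rose.

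Of 10 endothelial markers with a probe set 6 were above the filter. Their summed signal at 48 h ran from 2957 to 4982 in vehicle wells, 2976 to 3894 at 8 µM and 1880 to 2544 at 200 µM. For Kupffer cells, the resident macrophages, 7 of 9 were above it, and the 48 h sums were 3197 to 4944, 3931 to 4309.8 and 2579 to 3134. At 48 h all 200 µM wells lay below all vehicle wells in both sums and the 8 µM wells overlapped vehicle. The same held at 24 h, by a narrow gap. There the endothelial sums ran from 3938 to 4974 in vehicle wells and from 3068 to 3931 at 200 µM. Those of Kupffer cells ran from 5104 to 6713 and from 4595 to 5100. The stellate sum at 200 µM also lay below all vehicle wells at both times. Of 6 cholangiocyte markers 3 were above the filter, with Krt7, Spp1 and Cftr below it, and the 48 h sums were 9303 to 13987, 11258 to 12635 and 10173 to 10985. Krt19 was lower, with log2 differences of -1.72 at 8 µM and 24 h and -2.55 and -1.89 at 48 h. At most 238.2 in any treated well, it passed the filter only through vehicle arrays, so nothing is read from these values. At 200 µM and 24 h Krt19 was not called. Epcam was called lower there, but not under median centring. The part of these cells in the results was not tested.

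The hepatocyte sum ran from 667158 to 790276 in 24 h vehicle wells and from 614175 to 691864 in treated ones, and at 48 h from 496798 to 728240 and from 501995 to 603985. Of its 11 markers 3 fell at 8 µM (Fga, Fgb and Cps1) and 1 at 200 µM (Cps1) at 24 h. At 48 h 4 fell and 1 rose at 8 µM, and 5 fell at 200 µM. Of all genes 13.8% and 13.1% fell at 24 h and 18.9% and 17.1% at 48 h. Under median centring the falls numbered 0 and 0 at 24 h and 2 and 0 at 48 h. The 3′ to 5′ ratio of the β-actin control probe sets, which moves with RNA length and labelling, had a mean of 2.86 ± 0.276 for vehicle, 3.10 ± 0.213 for 8 µM and 3.31 ± 0.166 for 200 µM after 24 h. After 48 h the means were 2.62 ± 0.313, 3.26 ± 0.418 and 3.10 ± 0.201. It was higher in each treated group than in its vehicle, and its part in the results was not tested. The same ratio of Gapdh lay between 1.15 and 1.19 in all groups.

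The genes whose signal followed Ccn2 most closely over the 30 arrays were found by Pearson correlation on the log2 scale. They were Lurap1l (r = 0.985), Ier3 (0.984), Pmp22 (0.982), Steap4 (0.980) and Slc25a29 (0.977). LURAP1L is a leucine-rich adaptor protein, IER3 an immediate early stress protein, PMP22 a membrane protein of myelin and epithelia, STEAP4 a metalloreductase and SLC25A29 a mitochondrial carrier of basic amino acids. The 6 group means carry most of each value, since all arrays share the same groups. After the group means were removed the correlations were 0.58, 0.45, 0.44, 0.32 and 0.32.

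Of these 5, Steap4 was closest to Ccn2 in the size of its differences, with a mean signal of 13494 ± 601 in 24 h vehicle wells and 2803 ± 183 and 2644 ± 254 at 8 µM and 200 µM. Its log2 differences were -2.26 and -2.35 at 24 h and -2.85 and -2.71 at 48 h. Pmp22, like Ccn2, was higher in 48 h than in 24 h vehicle wells, with 4408 ± 101 at 24 h and 6875.5 ± 509 at 48 h. The vehicle means of Steap4, Lurap1l and Ier3 were higher at 48 h as well, and that of Slc25a29 was not. For Ccn1 the closest were Arhgap24 (r = 0.919), Lox (0.916), Steap4 (0.915), Slc50a1 (0.915) and Smad1 (0.914). Lox, lysyl oxidase, which cross-links collagen, was at -1.17 and -1.13 at 24 h and at -1.75 and -1.83 at 48 h.

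Among the chosen genes themselves, the correlation with Ccn2 over the arrays was 0.92 for Ccn1, 0.89 for Amotl2, 0.87 for Tead1 and 0.74 for Lats2. It was 0.52 for Axl, 0.34 for Ankrd1 and -0.36 for Tgfb2. Within groups these were 0.19, 0.21, 0.20, 0.06, -0.06, 0.35 and 0.33. Without 48 h vehicle replicate 4 they were 0.08, -0.03, 0.01, -0.07, 0.30, 0.42 and 0.16, so that array turned the sign for Amotl2, Lats2 and Axl.

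**Figure D5:**
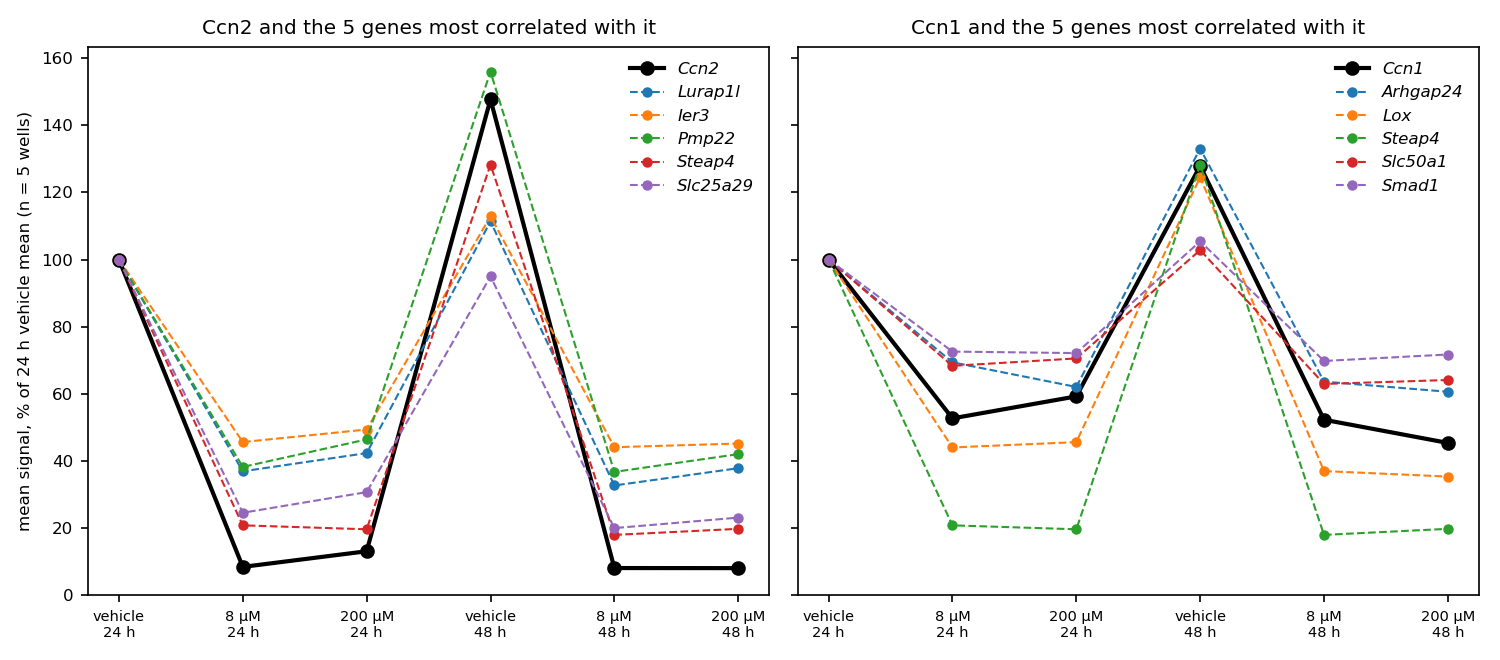
Mean signal of Ccn2 and of Ccn1 (black) and of the 5 genes most correlated with each, as a percent of the 24 h vehicle mean, in the 6 groups (n = 5 wells each; lines join group means only as a guide). All curves are low in the 4 treated groups and high in the 2 vehicle groups, and none of the 5 on the left reaches the 8.38% of Ccn2 at 8 µM and 24 h.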

How the data were processed

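RNA of 30 wells was hybridised to Affymetrix rat arrays, and the values used are the deposited probe set intensity signals. MAS5 is named in the submitters' processing notes. Its version, scaling target and chip definition are not given in the sources used here. On every array the mean trimmed by 2% was 1500.5 to 1500.7. Of 31099 probe sets, 20832 carried 1 gene symbol in the platform annotation, 15629 of these exceeded the 40th percentile of signal (281.361) on at least 5 arrays, and the probe set with the highest mean was kept for each of 11545 genes. No table column lacked a sample.

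Differences are on the scale of log2(signal + 16), which understates the change of weak genes. One limma fit (3.58.1, R 4.3.3) with 6 group means and a variance trend gave 9 contrasts, two-sided, adjusted by Benjamini-Hochberg over all genes with a threshold of 0.05. It was tested on simulated data. Intervals are 95% and unadjusted, and the number of arrays limits the precision. The chosen genes, the gene lists and the tests were selected with earlier results of these data known. All chosen genes are named, up to 4 others of each list by the largest moderated statistic against vehicle, and the 5 genes most correlated with Ccn2 and with Ccn1. Further list genes, named to account for a count or a changed call, were picked after their values were seen. Promoter windows are from RefSeq, build GRCr8. Alternatives were quantile normalization, median centring, pseudocounts of 1 and 64, no filter or the 60th percentile, averaged probe sets, each probe set by itself, no variance trend, array weights, only the groups of a contrast, a run of arrays as a block and leaving out each array.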

Additional observations from a re-analysis of the deposited data

Results flagged for a closer look

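Within each group of 5 wells, the highest and the lowest signal of each of the 8 measured genes was compared with the others by Dixon's criterion, which chance meets in about 1 in 20 groups. Of 48 gene and group combinations 6 met it, and 3 of these are 48 h vehicle replicate 4. In that well Ccn2 was the lowest of its group at 14532.5, with the others from 17636.9 to 18810.5. Axl was the highest at 1493.2, with the others from 740.4 to 854.2. Tgfb2 was the lowest at 220.4, with the others from 676.3 to 978.5. In the other 3 cases a well stood apart for a single gene. Tgfb2 in 24 h vehicle replicate 5 was at 280.7, with the others from 77.0 to 102.4. Ankrd1 in 48 h 8 µM replicate 1 was at 36.9, with the others from 222.7 to 298.5. Axl in 24 h 200 µM replicate 5 was at 504.0, with the others from 613.5 to 658.5.

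The 200 µM difference of Lats2 from vehicle moved by -0.50 on the log2 scale between the times, from 0.06 at 24 h to -0.44 at 48 h, and passed the limma threshold for that change. Its 24 h part took part in the choice of the genes, so the value is a description.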

How the results depend on the processing

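Counts of the 7 genes are given first, then counts over all genes, in the order 200 µM against 8 µM at 24 h and 48 h, vehicle over time, and the change of the 8 µM and of the 200 µM difference with time, where they moved by over 1.5 times. Quantile normalization gave 1 of the 7 for the doses at 24 h and 2 for the 8 µM change, with 543 and 449 genes for the changes with time. Median centring gave 3 of the 7 at 8 µM and 48 h, 1 for vehicle over time and 0 for the 200 µM change. Over all genes it gave 1461 and 1353 at 8 µM and 200 µM at 24 h, 39, 96, 299, 42 and 28, and Ccn2 at 8 µM and 48 h was at -3.99. The 60th percentile filter, the mean of probe sets and no variance trend each gave 1 of the 7 for the doses at 24 h. Only the groups of a contrast gave 2 of the 7 for the doses at 48 h and 1 for vehicle over time, with 647, 342, 205 and 176 genes for the doses at 24 h, vehicle and the changes. Array weights gave 1, 1, 2 and 2 of the 7 for the doses and the changes, and 750, 1146, 596 and 528 genes. Median centring without 48 h vehicle replicate 4, added after the data were seen, gave 1 for the doses at 48 h and 2 for each change.

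Leaving out each array gave 4 to 5, 4 to 4, 5 to 5 and 5 to 5 of the 7 against vehicle, 0 to 1 and 0 to 1 for the doses, 1 to 2 for vehicle, and 0 to 2 and 1 to 2 for the changes. Over all genes it gave 2604 to 3549, 2526 to 3571, 3769 to 4274 and 3506 to 4160 against vehicle, 244 to 676 and 398 to 1037 for the doses, 830 to 1275 for vehicle, and 250 to 582 and 199 to 488 for the changes. The highest counts came without 48 h vehicle replicate 4, other than 1275 for vehicle. Ccn2 ran from -3.60 to -3.52, -2.96 to -2.88, -4.25 to -4.13 and -4.27 to -4.10. The cause of these moves was not tested. No difference past the threshold turned its sign. Of the comparisons of the 8 genes, 16 turned sign under some setting, each without passing, such as Tgfb2 at 200 µM and 48 h (0.61, and -0.16 with averaged probe sets) and Ccn2 between the doses at 48 h (-0.01, and up to 0.07).

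Median centring shifted the median of all genes by 0.19 and 0.17 against vehicle at 48 h, -0.15 for vehicle and 0.16 and 0.15 for the changes. It moved the share of higher calls from 46.9% to 73.1%, 49.6% to 73.6%, 45.2% to 29.8%, 57.6% to 81.0% and 54.0% to 71.4%. Averaging its probe sets took Tgfb2 at 24 h to 0.50 and 0.29. With runs of 6 consecutive arrays as a replicate block, the counts of the 7 were 4, 4, 5, 5, 0, 0, 2, 0 and 1, and 2913, 2925, 4162, 3971, 392, 610, 1222, 370 and 289 genes passed. The runs come from array order, not from the labels. Weak genes such as Ankrd1 and Tgfb1, near or below the filter, limit what can be measured.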
